A study of Arabidopsis thaliana with 3 samples.

Results

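The loci described here are 98 nuclear genes of Arabidopsis thaliana whose counts were low in 1 of 3 RNA pools of dissected inflorescence meristems. The study sequenced 3 pools of the wild-type accession Col-0, the common laboratory strain, which form 1 untreated group. The plants spent 4 weeks under 8 h of light a day and the next 2 weeks under 16 h, and each pool held 10 inflorescences with buds taken off up to the primordium stage P5. The pools are called pool 1, pool 2 and pool 3 after the numbers in the sample titles, and the labels do not say whether they were grown or dissected apart. The inflorescence meristem is the growing point of the flowering stem, and any flower primordia left on it were part of the pool.

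The 98 members were selected on the measured values themselves. Counts of each pool were scaled to CPM, the usual per-million unit, over the nuclear counts of that pool. A locus entered when its mean CPM was at least 10, its CPM in pool 2 was at most 0.6 times the lower of the other pools, and pool 1 stood between 0.5 and 2 times pool 3. Of 32678 loci in the count tables, 13574 nuclear loci had a mean of at least 10 CPM, and 99 of them, 0.729%, met the numeric rule. One of these, the trehalose-6-phosphate synthase gene TPS11, is among 4 TPS genes that the rule leaves out, which gives the 98. Because the rule used the CPM of every pool, a low value in pool 2 is what chose the genes, and no test was made on it. All values below are descriptions. The same rule with the pools exchanged took 33 loci low in pool 1 (0.243%) and 116 low in pool 3 (0.855%), and the mirrored rule took 43 loci high in pool 2 (0.317%). A set of this size was therefore found in pool 3 as well, and being low in 1 pool was not particular to pool 2.

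Plant cells that run short of sugar, in prolonged darkness for example, switch on a known set of genes. The kinase SnRK1, the plant relative of the yeast Snf1 and animal AMP-activated kinases, is active when energy is low and is held back by trehalose 6-phosphate, a sugar that follows the level of sucrose. Its targets include the dark-inducible (DIN) genes, enzymes that break down amino acids and stored sugars, and several small proteins of unknown function that serve as markers of the starved state. Basic leucine zipper (bZIP) factors of groups C and S1 act on part of these genes. Sucrose and light lower the same transcripts.

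The tissue and the set were checked against their labels. The meristem genes STM and KNAT1 stood at 98.1, 126 and 116 CPM and at 87.2, 150.5 and 94 CPM, while the stem cell genes WUS and CLV3, which few cells express, stood at 3.78, 3.32 and 4.74 CPM and at 0.688, 0.899 and 1.1 CPM. Of the 98, 20 were in at least one of 9 lists of starvation-related genes, and 78 were in none of them. Of the 101 genes of these lists with a mean of at least 10 CPM, 20 (19.8%) met the rule, beside 0.729% of all loci tested. The lists were drawn up with earlier results of these data known, so this share is a description. The members also held light-harvesting and Rubisco genes, myrosinases and regulators that are in no starvation list. The set is therefore called here by its rule, the loci low in pool 2, and by its leading genes AT3G15450, DIN10 and ASN1.

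The promoters of the 6 starvation-list members with the highest mean CPM are shown because several of their short motifs recur in the set. Each line holds the 250 bases before the gene's start in the RefSeq assembly TAIR10.1, read 5′ to 3′ on the gene's own strand. Capitals mark CACGTG (G-box), GATAAG (I-box) and TATCCA (amylase-type box) on either strand. The windows are chr3:5212734-5212983 (plus strand) for AT3G15450, chr5:6833314-6833563 (plus strand) for DIN10, chr3:17441432-17441681 (minus strand) for ASN1, chr2:14310609-14310858 (minus strand) for AT2G33830, chr1:30404714-30404963 (minus strand) for J8 and chr5:6225706-6225955 (plus strand) for BMY3.
AT3G15450: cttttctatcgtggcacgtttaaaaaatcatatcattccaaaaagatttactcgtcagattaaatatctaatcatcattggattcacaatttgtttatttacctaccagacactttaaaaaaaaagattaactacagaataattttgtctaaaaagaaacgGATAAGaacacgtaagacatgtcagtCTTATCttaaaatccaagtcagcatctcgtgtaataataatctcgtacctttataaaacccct
DIN10: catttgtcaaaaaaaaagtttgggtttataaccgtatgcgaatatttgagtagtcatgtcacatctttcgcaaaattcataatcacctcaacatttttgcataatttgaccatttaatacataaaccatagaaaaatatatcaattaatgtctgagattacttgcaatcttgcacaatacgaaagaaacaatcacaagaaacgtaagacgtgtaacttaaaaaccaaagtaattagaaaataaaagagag
ASN1: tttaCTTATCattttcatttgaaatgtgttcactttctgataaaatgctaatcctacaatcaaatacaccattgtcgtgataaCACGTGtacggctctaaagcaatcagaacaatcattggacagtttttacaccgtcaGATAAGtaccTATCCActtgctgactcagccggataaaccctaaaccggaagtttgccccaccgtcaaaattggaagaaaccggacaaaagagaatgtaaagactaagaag
AT2G33830: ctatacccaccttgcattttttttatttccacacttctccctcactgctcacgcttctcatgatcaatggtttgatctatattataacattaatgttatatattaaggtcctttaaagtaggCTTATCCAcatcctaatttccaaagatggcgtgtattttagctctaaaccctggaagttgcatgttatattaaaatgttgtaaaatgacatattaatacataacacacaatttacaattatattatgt
J8: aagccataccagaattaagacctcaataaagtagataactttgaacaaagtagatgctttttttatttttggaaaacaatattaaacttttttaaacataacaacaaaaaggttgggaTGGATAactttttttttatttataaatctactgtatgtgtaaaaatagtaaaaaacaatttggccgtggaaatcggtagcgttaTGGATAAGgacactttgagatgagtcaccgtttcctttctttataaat
BMY3: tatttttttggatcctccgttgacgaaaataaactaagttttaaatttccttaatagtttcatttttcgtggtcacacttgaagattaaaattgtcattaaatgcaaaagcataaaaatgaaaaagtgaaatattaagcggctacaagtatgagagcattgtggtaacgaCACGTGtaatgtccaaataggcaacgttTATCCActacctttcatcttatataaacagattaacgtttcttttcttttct
The starvation marker AT3G15450 had GATAAG at positions -89 and, in reverse, -63, where a position is that of the first base printed, counted back from the gene's start. DIN10 held none of the 3 motifs in this window. ASN1 held the G-box at -167, GATAAG at -111, its reverse complement at -246 and TATCCA at -101. In AT2G33830 and at -48 and -46 in J8, GATAAG and TATCCA overlap on opposite strands, so that 1 stretch of letters counts for both. J8 held a further TATCCA, in reverse, at -132. BMY3 held the G-box at -80 and TATCCA at -52. A match is a description of letters, not a site shown to be used.

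The median member was more abundant than the median locus, and their ratios lay in a narrow range below the threshold. Their mean CPM ran from 10.1 to 3943, with a median of 66.6 beside 39.2 for all loci tested, and 40 of them (40.8%) reached 100 CPM beside 16.3% of all loci tested. Together they took 2.59% of the nuclear counts in pool 1, 1.23% in pool 2 and 2.55% in pool 3. Pools 1 and 3 were close to each other in this sum. On the log2 scale, pool 2 over the mean of pools 1 and 3 ran from -2.35 to -0.76 with a median of -1.03, and the median over all loci tested was 0.03. The ratio of pool 2 to the lower of the other pools had a median of 0.528 and was at most 0.5 for 41 members and at most 0.4 for 9. Pool 1 over pool 3, which the rule bound only loosely, had a median of 1.03 and ran from 0.629 to 1.71. It lay between 0.8 and 1.25 for 76 members (77.6%), beside 88.8% of all loci tested. Pool 1 was above pool 3 in 61 members (62.2%), beside 55.7% of all loci tested.

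**Figure D1:**
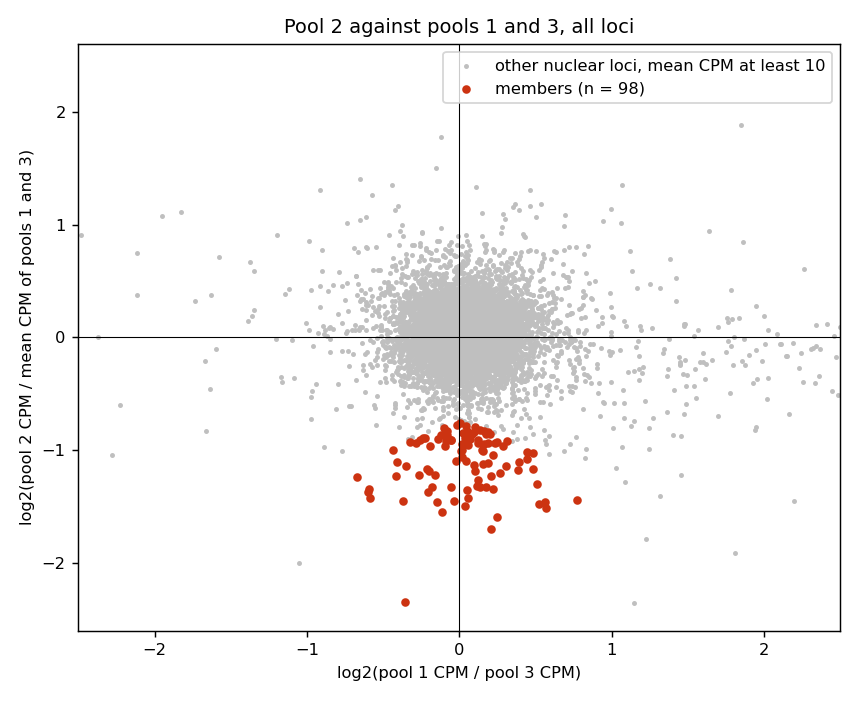
Each point is 1 nuclear locus with a mean of at least 10 CPM, with log2 of pool 1 over pool 3 on the horizontal axis and log2 of pool 2 over the mean of pools 1 and 3 on the vertical axis. The 98 members (red) lie between -2.35 and -0.76 on the vertical axis, as the rule requires, and spread to both sides of 0 on the horizontal axis. Grey points are the other loci, and 56 loci fall outside the axes.

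The highest member by far was AT3G15450, which the reference describes as an aluminum induced protein with YGL and LRDR motifs and which serves as a marker of SnRK1 activity. It stood at 4759.6, 2370.4 and 4700.1 CPM in pools 1, 2 and 3, the order used for every triplet of values below. Pool 2 held 0.504 times the lower of the others, with a counting interval of 0.4997 to 0.509 (exact, 95%, from the counts alone). The values of pools 1 and 3 lay almost on each other. Per exon length (TPM-like values, CPM divided by exon length and scaled to the same total), it was at 7371, 3703 and 7400.0 and ranked first among the members. The next by this scale were J8 at 1391, 557 and 1223 and AT2G33830 at 1259, 644 and 1230.4. Its relatives with the same description differed in how far pool 2 lay below the others. AT5G43830 stood at 804, 518 and 742 CPM (ratio 0.698), AT4G27450 at 206, 161 and 229 (0.781) and AILP1 at 160.1, 153 and 163 (0.959). Of the 4 expressed genes of the family 1 met the rule, beside 0.729% of all loci tested.

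Of the 8 dark-inducible genes listed, 5 had at least 10 CPM and 3 of these (60%) were members, beside 0.729% of all loci tested. DIN10, a raffinose synthase family protein, stood at 1757, 697 and 1458 CPM. ASN1, the asparagine synthase that moves nitrogen into asparagine when carbon is short, stood at 1112, 553 and 1482 CPM, and here pool 3 was the highest. SEN1, a rhodanese-type protein induced in darkness and senescence, stood at 539, 189 and 526 CPM, the lowest ratio of the group (0.359). In all 3 genes pool 2 was the low value by the rule, and pools 1 and 3 were nearer to each other than to it. DIN4 and BCE2, subunits of the branched-chain keto acid dehydrogenase, had pool 2 lowest too, at 219, 122 and 172 CPM and at 187, 114 and 164 CPM, but above the 0.6 threshold. DIN9 was below the CPM filter at 1.99, 0.76 and 2.02 CPM. DIN2 was at 0 counts in every pool, and DIN11 had at most 3 counts in each.

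Of the 17 further markers of SnRK1-type starvation listed, 16 had at least 10 CPM. Pool 2 was the lowest pool in all 16, and 9 (56.2%) were members, beside 0.729% of all loci tested. Over all loci tested, pool 2 was the lowest in 29.1%. In the 9 members pool 2 was the lowest by the rule, so only the other 7 add to this comparison. The list was also drawn up with earlier results of these data known. The median log2 of the 16, with the 9 members included, was -0.94. The remaining marker, PHI-1, was below the CPM filter at 5.95, 4.77 and 0.404 CPM, with pool 3 the lowest. AT2G33830, a dormancy/auxin associated protein that rises in dormant buds, stood at 865, 439 and 832 CPM. AT5G22920, a zinc finger protein of the CHY and RING types, stood at 712, 292 and 523 CPM, with pool 1 above pool 3. J8, a small J-domain protein of the chloroplast, stood at 868, 345 and 751 CPM. AKINBETA1, a beta subunit of SnRK1 itself, stood at 198, 108 and 206 CPM, and the values of pools 1 and 3 again lay close together. The 7 list genes that missed the threshold had ratios from 0.634 for MIOX2 to 0.847 for EXL4. Among these DYL1, a second dormancy-associated gene, stood at 1077, 658 and 838 CPM, and BT2, a BTB and TAZ domain protein, at 33, 8.71 and 13.3 CPM. BT2 had a lower log2 (-1.41) than most members, but its value in pool 1 was far above both others.

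Further highly expressed members share this profile without being in a list. AT1G56220, the other dormancy/auxin associated member, stood at 1187, 612 and 1031 CPM. AT3G15630, described only as a plant protein, stood at 597, 259 and 523 CPM. Of the 3 expressed dormancy/auxin associated genes, 2 were members, beside 0.729% of all loci tested, and DYL1 was the exception. The J-domain protein J11 stood at 761, 442 and 929 CPM and the related AT2G17880 at 87.3, 33.6 and 80.7 CPM. These and J8 were the 3 members among 36 expressed genes of the J-domain superfamily, beside 0.729% of all loci tested.

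**Figure D2:**
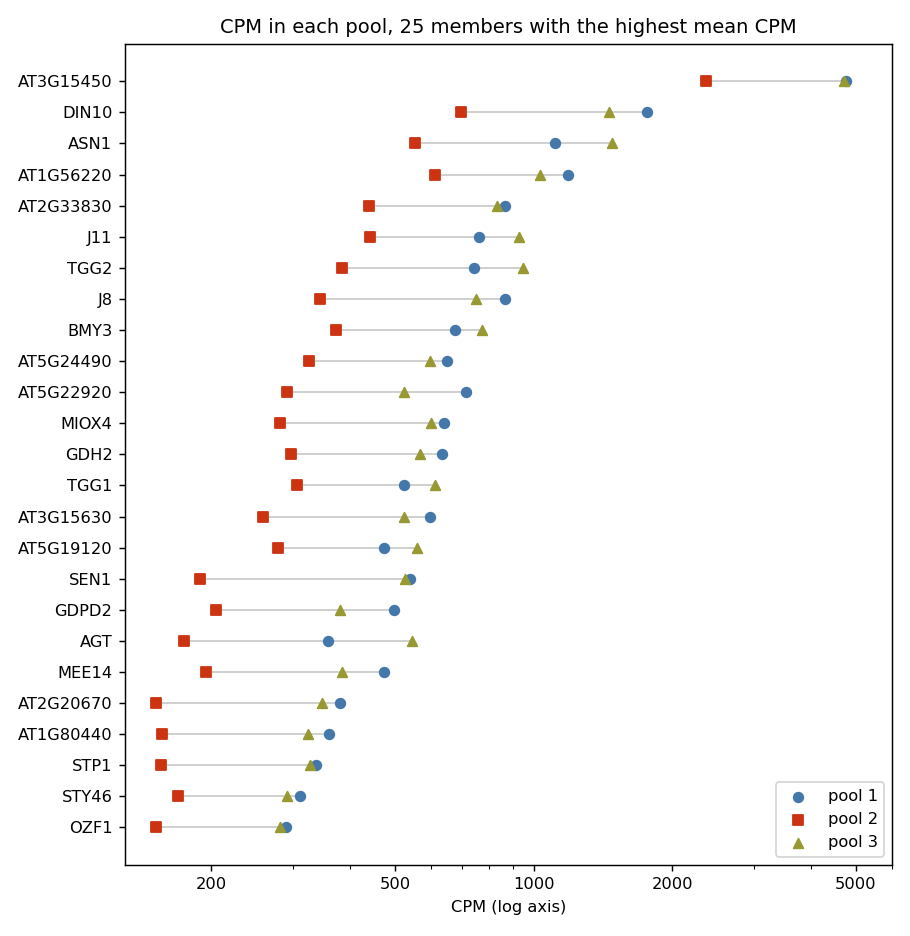
CPM on a log axis in pools 1 (blue circles), 2 (red squares) and 3 (green triangles) for the 25 members with the highest mean CPM, joined by a grey line. Pool 2 is the lowest in every row by the rule, while pools 1 and 3 change order from gene to gene.

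Genes of amino acid breakdown gave 7 members among 27 expressed list genes (25.9%, beside 0.729% of all loci tested), with a list median log2 of -0.56. ASN1 is one of the 7. GDH2, a glutamate dehydrogenase that releases ammonium and carbon skeletons from glutamate, stood at 631, 298 and 567 CPM. Its paralogue GDH1 stood at 78.4, 71.4 and 82.4 CPM. BCAT-2, a branched-chain aminotransferase of the mitochondrion, stood at 41.1, 19.2 and 61.7 CPM with pool 3 well above pool 1. MCCA, the alpha chain of methylcrotonyl-CoA carboxylase in leucine breakdown, stood at 308, 149 and 263 CPM, whereas its partner subunit gene MCCB stood at 87.8, 79.7 and 92.4 CPM (ratio 0.908). The subunits of 1 enzyme thus differed in ratio. AT1G21400, an alpha subunit of the branched-chain keto acid dehydrogenase, stood at 141, 81.8 and 149 CPM. In tyrosine breakdown, PDS1, the hydroxyphenylpyruvate dioxygenase, stood at 48.6, 22.1 and 54.3 CPM, and HGO, the homogentisate dioxygenase of the next step, at 68.7, 36.1 and 65.6 CPM. Both genes had pool 2 low by the rule, and pools 1 and 3 were close to each other. ERD5, the proline dehydrogenase, was high at 1869, 1197 and 2238 CPM but missed the threshold with a ratio of 0.641, as did the threonine aldolase gene THA1 at 0.605. The 2 amino acid transporters among the members were CAT6, for cationic amino acids, at 34.8, 16.8 and 40.5 CPM and UMAMIT33 at 68.6, 25.5 and 70.4 CPM.

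Beside DIN10, 8 members were grouped as genes of sugar metabolism and transport. Of 13 expressed genes of starch and sucrose breakdown, 1 was a member (7.69%, beside 0.729% of all loci tested). Pool 2 was the lowest pool in 38.5% of them, beside 29.1% of all loci tested, and the list median was -0.06, beside 0.03. That member was BMY3, a beta-amylase family gene with pool 2 lowest by the rule, at 676, 372 and 773 CPM. MIOX4, a myo-inositol oxygenase that feeds wall sugar synthesis, stood at 638, 282 and 598 CPM, and STP1, the monosaccharide proton symporter of the plasma membrane, at 337, 156 and 327 CPM. For STP1 the values of pools 1 and 3 were again close. BXL1 and BGAL2, glycosidases that act on wall polymers, stood at 19.6, 10.7 and 20.8 CPM and at 22.3, 12 and 21.6 CPM. The trehalase gene TRE1 stood at 18.1, 8.99 and 27.4 CPM, UGE3, an epimerase of UDP-glucose and UDP-galactose, at 34.3, 16.1 and 34.8 CPM, and the GHMP kinase family gene AT5G14470 at 22, 6.74 and 14.9 CPM. The raffinose synthase family gene AT3G57520, a relative of DIN10 chosen after its values were seen, stood at 4003, 2563 and 4316 CPM with a ratio of 0.640.

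The TPS genes left out by the rule code for class II trehalose phosphate synthases, several of which respond to sugar. TPS8 stood at 223, 116 and 191 CPM with a ratio of 0.605, TPS9 at 170.3, 105 and 165 with 0.641 and TPS10 at 105, 77.8 and 84.6 with 0.919. TPS11 stood at 187, 90.9 and 162 CPM with a ratio of 0.562. The counts of members exclude all 4.

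For the other starvation lists, a count of 0 members is near the background of 0.729% and is not a result. No gene of 25 expressed autophagy genes was a member. Pool 2 was the lowest pool in 14 of them (56%, beside 29.1% of all loci tested), and the list median was -0.15. None of 11 expressed FLZ zinc finger genes, which code for partners of SnRK1, was a member, and their median was 0.22, above that of all loci. The C group bZIP factors with values, 4 genes, ran from -0.54 to 0.00 in log2, and BZO2H3 was the lowest of them at 152, 99.5 and 138 CPM. The 5 group S1 genes bZIP1, bZIP2, GBF6, bZIP44 and BZIP53 were listed at 0 in every pool. In each case the adjacently numbered locus of the tables, which the reference does not hold, was also at 0, so no level of these 5 factors was read. For the senescence list, 1 of 3 expressed genes was a member (33.3%, beside 0.729% of all loci tested). This was NAP, a NAC factor of leaf senescence, at 25.3, 9.26 and 21.8 CPM, while NYE1 (chlorophyll breakdown) stood at 10.7, 10.6 and 12.3 CPM. WRKY53, the other expressed gene of this list, stood at 35.1, 13.1 and 12.8 CPM, with pool 3 the lowest. SAG12, the classical senescence marker, had 0 counts in every pool.

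Genes that rise with sugar were set beside these. Of 9 expressed sugar-induced genes and 8 expressed cell division genes none was a member, which at 0.729% of all loci is near the background and is not a result. The sugar-induced genes had a median log2 of 0.05 and the cell division genes 0.13, beside 0.03 for all loci tested. Pool 2 was the lowest pool in none of the genes of these lists, beside 29.1% of all loci tested.

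**Figure D3:**
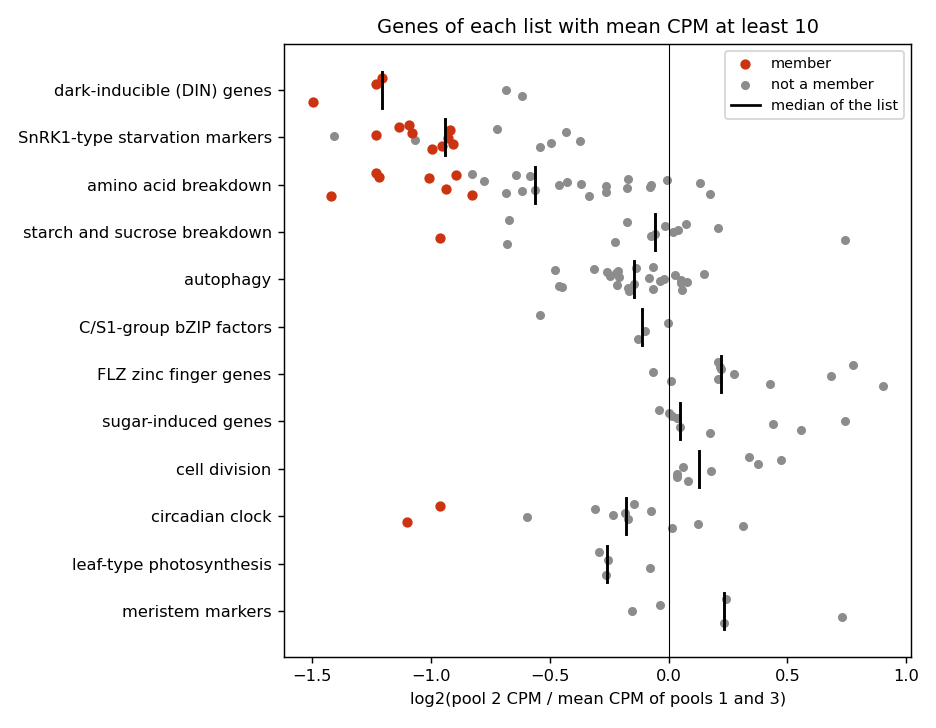
Each point is 1 gene of a list with a mean of at least 10 CPM, and the horizontal axis is log2 of pool 2 over the mean of pools 1 and 3. Red points are members, grey points are not, and black bars are list medians. Of the 24 lists, 12 are drawn, and their medians run from -1.21 for the dark-inducible genes to 0.23 for the meristem markers. A gene in more than one list is drawn in each.

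Each member was put under 1 role only. Among regulators, 9 members were grouped as F-box, RING or BTB proteins, kinds of protein that often mark others for breakdown. AT5G22920 (above) also has a RING domain, and SIS (below) is described as similar to a ubiquitin ligase. AT1G80440 and AT3G59940, kelch F-box proteins that target cytokinin response regulators, stood at 360.4, 157 and 323 CPM and at 101, 59.9 and 127 CPM. They were 2 of 3 expressed genes of this small family, beside 0.729% of all loci tested, and pool 2 was low in both by the rule. The kelch F-box genes AT1G23390 and AT5G43190 stood at 175, 83.1 and 172 CPM and at 23, 12.1 and 20.2 CPM. RMA1, a RING protein of the endoplasmic reticulum, stood at 155, 76.8 and 154 CPM, with pools 1 and 3 nearly equal. The others of this group were less abundant. BT1, a BTB and TAZ domain protein, stood at 22.4, 12.6 and 23.7 CPM. FKF1, the blue-light receptor F-box protein that controls flowering time factors, stood at 14, 7.43 and 14.9 CPM. The RING genes AT1G02610 and AT5G47610 were low, at 19.3, 5.67 and 13 CPM and at 13, 6.91 and 12.6 CPM. Beside the SnRK1 subunit gene AKINBETA1 (above), STY46, a protein kinase that acts on chloroplast precursor proteins, stood at 311, 169 and 292 CPM.

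The 8 members grouped as transcription factors and related zinc finger regulators, NAP (above) among them, had ratios from 0.407 to 0.599. The zinc finger genes AT5G22920 and AT1G02610 were grouped elsewhere. OZF1, a CCCH zinc finger protein of oxidative stress, was the highest at 290.4, 151 and 282 CPM. MYBL2, a repressor of anthocyanin synthesis, had the lowest ratio at 67.3, 27.4 and 69.8 CPM. RVE1, a MYB-like factor at the output of the circadian clock, stood at 47.6, 25.9 and 63.3 CPM. RVE1 and FKF1 were the 2 members among 12 expressed clock genes (16.7%, beside 0.729% of all loci tested). The list median was -0.18, beside 0.03 for all loci tested. Pool 2 was the lowest pool in 8 of the 12 (66.7%, beside 29.1% of all loci tested) and the highest in 1. RVE1 and FKF1 are among these 8 by the rule. Among the 8 was PRR5 at 59.7, 46.3 and 80.2 CPM. The morning gene LHY stood at 45.3, 71 and 69.1 CPM and the evening gene TOC1 at 115, 96.8 and 113 CPM, so neither of these had pool 2 at 0.6 of the others. WRI4, an AP2-type factor of wax synthesis, stood at 107, 52.9 and 95.9 CPM. NAC019, a stress-responsive NAC factor, stood at 18.3, 8.85 and 15.4 CPM and the Dof-type gene AT1G47655 at 23.9, 13.1 and 23.5 CPM. HB-12, a homeodomain-leucine zipper factor of drought response, stood at 23.8, 13.3 and 22.1 CPM and was the member nearest to the threshold.

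A further 8 members were grouped as genes of photosynthesis, carbonic anhydrase and photorespiration, and none of these 8 is in a starvation list. CA1, a chloroplast carbonic anhydrase, had the lowest ratio of all members, 0.224, at 32.1, 7.19 and 41 CPM. Its counting interval was 0.192 to 0.261. CA1 overlaps LSF1 on the same strand, whose ratio was 0.923, and the assignment of reads to either locus was not examined. AGT, the peroxisomal aminotransferase of photorespiration, stood at 359, 175 and 544 CPM with pool 3 highest. BCA6, another carbonic anhydrase gene, stood at 49.7, 25.9 and 44.1 CPM, and AT5G24490, described as a 30S ribosomal protein, at 649, 325 and 597 CPM. The light-harvesting genes LHB1B1 and LHCB2.3 stood at 105, 31.8 and 72.9 CPM and at 142, 78.4 and 137 CPM, and the Rubisco small subunit genes RBCS2B and RBCS1B at 16.4, 6.88 and 21.1 CPM and at 12.7, 7.26 and 12.3 CPM. The more abundant relatives given next are not members, so their ratios above 0.6 follow from the rule. RBCS1A, the main small subunit gene, stood at 3175, 2687 and 3276 CPM (ratio 0.846), RBCS3B had a ratio of 0.821, and CAB1, a main light-harvesting gene, stood at 4959.8, 4589 and 4727 CPM (0.971). The 4 leaf-type photosynthesis markers had a median log2 of -0.26, beside 0.03 for all loci tested. Pool 2 was the lowest pool in all 4 of them, beside 29.1% of all loci tested. None of the 4 was a member, which at 0.729% of all loci is near the background and is not a result. Genes of these families have near-identical copies, and how reads with several matches were counted is not given in the sources used here, so the split between copies is uncertain.

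The myrosinase genes TGG1 and TGG2 were members. Myrosinases split glucosinolates, the mustard oil precursors, and are made in guard cells and in myrosin cells along the phloem. TGG2 stood at 743, 384 and 946 CPM and TGG1 at 523, 307 and 612 CPM, and in both pool 3 was the highest. In a bulk pool, fewer cells of a type and less RNA per cell cannot be told apart. SNG1, which makes the sunscreen compound sinapoylmalate, stood at 29.4, 15.8 and 27.8 CPM.

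Members of lipid metabolism were GDPD2, a glycerophosphodiester phosphodiesterase, at 499, 205 and 381 CPM, ACBP3, an acyl-CoA-binding protein, at 187, 64.7 and 131 CPM, and AAE5, an acyl activating enzyme, at 64.2, 24.7 and 62 CPM. Pool 1 was the highest in each of the 3. WES1, a GH3 enzyme that joins auxin to amino acids, stood at 142, 79.9 and 157 CPM. Of 4 members named for stress, OXS3 (oxidative stress 3) stood at 116, 44.2 and 106 CPM, AT2G15960 (stress-induced protein) at 86, 38.8 and 73.7 CPM, SIS at 22.9, 9.75 and 25.8 CPM and COR15A, a cold-regulated chloroplast protein, at 20.5, 8.81 and 15.1 CPM. These 4 had ratios from 0.418 to 0.583.

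The remaining 33 members had mean CPM from 10.1 to 437 and ratios from 0.332 to 0.596. The highest were AT5G19120, an aspartyl protease family gene, at 473, 278 and 559 CPM, and MEE14 at 474, 195 and 383 CPM. AT2G20670 and AT4G32480, both of the DUF506 family, stood at 379.6, 151 and 348 CPM and at 262, 103 and 201 CPM. They were 2 of 5 expressed genes of that family, beside 0.729% of all loci tested. The lowest ratios were those of AT2G05540, a glycine-rich protein gene, at 52.3, 15 and 45.2 CPM, AT3G20340 at 13.8, 4.91 and 14.9 CPM and CXE12, a carboxylesterase-type hydrolase, at 64, 19.6 and 54 CPM. AT3G62950, a thioredoxin superfamily gene, stood at 17.4, 6.36 and 16.7 CPM and AT1G15330, with a cystathionine beta-synthase domain, at 61.1, 23.4 and 67.5 CPM. In all of these pool 2 lay below both other pools, which is what the rule required. AT2G36950 and AT4G36850, described as a heavy metal transport protein and a transmembrane PQ-loop protein, stood at 12.6, 7.43 and 12.6 CPM and at 55.8, 26.6 and 50.3 CPM. AT3G52070, described as a phosphatase, stood at 18.5, 8.68 and 15.2 CPM. AT2G32150, a haloacid dehalogenase-like hydrolase gene, stood at 195, 81.2 and 225 CPM and AT5G18130, of no described function, at 29.5, 11.1 and 26.2 CPM. Pool 2 was again the low value in each. Wall and metabolic genes in this group include PRP4, a proline-rich protein of the cell wall, at 103, 60.9 and 139 CPM, PDX1.1, an enzyme of vitamin B6 synthesis, at 31.8, 17.5 and 50.7 CPM, and GLYI4, a glyoxalase family gene, at 114, 61.5 and 104 CPM. PRP4 and PDX1.1 were highest in pool 3. PP2-A13, named as a phloem protein, stood at 115, 48.8 and 82.6 CPM and SBP2, a selenium-binding protein, at 72.4, 42.3 and 86.4 CPM. AT1G21670 and AT1G21680, neighbours with a DPP6-type domain, stood at 11.7, 6.84 and 11.8 CPM and at 139, 59 and 129 CPM, and AT4G24050, with an NAD(P)-binding fold, at 52.4, 24.8 and 62.9 CPM. The others of this group, without values here, are AT1G68440, AT3G29240, AT1G07040, AT3G26510, AT5G65207, AT1G54740, AT4G21445, AT4G36820, AT3G14060 and AT5G44572. Of the 98 members, 43 carry only a locus number as symbol.

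The threshold cut through a continuous range of values. Just inside it were HB-12 (0.599), AT5G43190 (0.597) and AT4G29950 (0.596, at 156, 82.9 and 139 CPM). Just outside were AT5G21940 (0.6003, at 605, 351 and 585 CPM), AT4G05070 (0.601) and NdhM, a subunit of the chloroplast NADH dehydrogenase-like complex (0.603). Of the 98 members, 36 had a ratio over 0.55, and for 34 the counting interval reached above 0.6. The least covered member had 142 counts in pool 2 and the most covered 68582.

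Features that the rule did not use were compared with all loci tested. All 98 members are protein coding, beside 99.1%. Their median exon length was 1629 bases beside 1896 for all loci tested, their median number of exons was 3 beside 6, and 24 (24.5%) have a single exon beside 8.32%. Chromosomes 1 to 5 held 25.5%, 14.3%, 16.3%, 17.3% and 26.5% of the members, beside 26.2%, 15.02%, 19.96%, 15.3% and 23.6% of all loci tested. Of the members, 3 pairs are direct neighbours among protein-coding genes. These are AT1G21670 with AT1G21680, which share the DPP6-type domain and are the 2 expressed genes of that description, TRE1 with AT4G24050, and RBCS2B with RBCS1B. TGG1 and TGG2 have 1 gene between them. On the opposite strand, 22 members (22.4%) overlap another locus, beside 27.3% of all loci tested, and 4 (4.08%) overlap one on the same strand, beside 4.44%. The strand setting of the counting is not given in the sources used here. Of the 22 opposite-strand partners, 18 had at least 10 CPM, and their ratios ran from 0.898 to 2.22, so none of these had pool 2 at 0.6 of the others. Among the 20 starvation-list members, 11 (55%) overlap another locus on either strand, beside 26.5% of all members and 31.1% of all loci tested.

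Promoter letters were compared in windows from 250 bases before to 50 after each start, on either strand. GATAAG was in 36.7% of the 98 promoters, beside 14.6% of 26711 promoters of protein-coding genes and 15.1% of those of loci with at least 10 CPM. TATCCA was in 35.7%, beside 16.1% and 17%. ACGTGT, a form of the abscisic acid response element that is labelled ABRE-type core here, was in 32.7%, beside 12.5% and 13.3%. CACGTG was in 17.3%, beside 7.79% and 9.38%, and 16 of these 17 promoters also held ACGTGT, whose letters can overlap it. GATAAG and TATCCA occurred together in 16 promoters (16.3%), 7 of them as the overlapping CTTATCCA, beside 3.34% and 1.36% of all promoters. None of these 4 motifs was in 30 member promoters (30.6%), beside 62.1% of all promoters. The evening element AAAATATCT was in 7.14%, beside 2.86% and 3.11%. In the other direction, GGCCCA, the core of site II elements of growth-related genes, was in 7.14%, beside 15.7% and 22.5%, and the telo-box AAACCCTA in 3.06%, beside 6.17% and 6.03%. Shares were close for GACGTC (4.08%, beside 2.86% and 3.33%) and for ACTCAT, the proline-response element (16.3%, beside 14.7% and 13.5%). The median GC content of the windows was 31.5% for members and 32% for all promoters. These shares are descriptions of a set whose members share a pattern by the rule and in part ancestry, and no test was made on them.

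**Figure D4:**
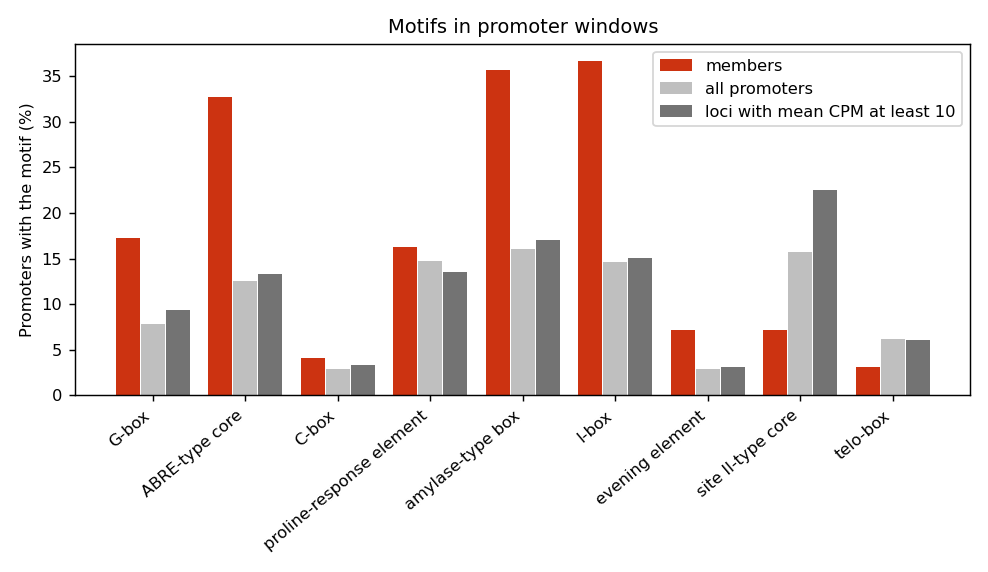
Bars give the percentage of promoter windows that hold each of 9 motifs on either strand, for the 98 members (red), all promoters (light grey) and promoters of loci with a mean of at least 10 CPM (dark grey). The I-box, amylase-type box and ABRE-type core are in 32.7% to 36.7% of the member promoters, and the site II-type core and telo-box are in a lower share of them than of either background.

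Values of the whole libraries that stand beside these results were as follows. Total counts were 29094404, 28948463 and 27254114, and a level of 10 CPM corresponds to 272 to 291 counts. Correlations of log2(CPM + 1) between pools over 13574 loci were 0.962 to 0.974. These loci share libraries and depth. The summed CPM of 8 tapetum markers was 199.98, 48.7 and 50.2, of 7 touch and wound genes 1127, 587 and 289, of 5 jasmonate genes 1967, 3893 and 4078, of 3 pollen markers 3.10, 12.9 and 0.771, of 7 phloem and xylem markers 55.1, 65.6 and 37.2, of 7 meristem markers 728, 887 and 842, and of 3 epidermis markers 1703, 1959 and 1911. In none of these sums was pool 2 at most 0.6 times both other pools. Within the tapetum list, the factor AMS stood at 58.3, 0.38 and 0.0367 CPM and CYP703A2 was at 0 counts in every pool. Within the pollen list, the pectin methylesterase gene VGD1 stood at 2.58, 12.2 and 0.33 CPM. The part of such differences in tissue content in the low values of pool 2 was not tested.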

How the data were processed

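RNA was sequenced from 3 pools of Col-0 inflorescence meristems, with a strand-specific library kit and paired reads of 100 bp, per the labels' protocols. The deposited values are raw counts per locus, not normalised. Per the submitters' processing notes, the tools were HTSeq 0.6.1, TopHat2 2.1.0, Bowtie2 2.2.5 and FastQC, and the build was TAIR10. How strand and reads with several matches were handled is not given in the sources used here.

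From the counts, CPM were computed over nuclear counts (29078107, 28933042 and 27236559). Chloroplast and mitochondrial loci, 0.0533% to 0.0644% of all counts, were left out. Identifiers were matched to RefSeq TAIR10.1 by locus number (31912 of 32678), which gave names, exons, gene starts and promoter sequence. Genes are called expressed at a mean of at least 10 CPM. The counting interval of a ratio is the exact 95% interval of the share of pool 2 in the 2 counts compared. It covers counting error only and treats reads as separate observations. PCR copies of 1 molecule are not separate, so the interval is too narrow where they occur. Variation between pools and the choice of loci by their low ratio are not in it. No test between pools was made, since there is 1 group and the rule used every pool. The code of the rule was run on simulated counts with counting error alone and planted ratios in pool 2. That run checks the code and says nothing about how real pools differ. Python 3.11.15, pandas 2.3.3, scipy 1.17.1, edgeR 4.0.16 and DESeq2 1.42.0 were used, the last 2 only for library scaling in alternatives.

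The members and the 24 gene lists were chosen with earlier results of these data known. Of 233 list entries, 232 entered because the reference gave the listed name. Members are named with values when among the 15 with the highest mean CPM or the 15 with the lowest ratio, when in a list, when described as a transcription factor, kinase, phosphatase, F-box, zinc finger or transporter, or when among the 3 nearest to the threshold. Further members are named by their role, and those were chosen after their values were seen. Gene families given with a count of members were also chosen after values were seen. Alternatives covered library scaling, the CPM filter, the ratio threshold, the limits on pools 1 and 3, each pool left out, overlapping loci, the promoter window and its background.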

Additional observations from a re-analysis of the deposited data

How the results depend on the processing

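Of 68 values recomputed under alternatives, 49 kept close to the reported value. A change of sign was possible only for the 18 motif differences among them, and none of these changed sign. Counts have no sign, and the rule keeps the median log2 negative. A count was held to be close within 1.5 times, a median within the typical SD of pools 1 and 3, and a motif share within its counting interval. The 98 loci became 113 with TMM library sizes and 114 with DESeq2 size factors, and all 98 were in both. The number of loci became 602 with no CPM filter, 211 at a mean of at least 1 CPM, 41 at a ratio threshold of 0.5 and 179 at 0.7. With 1 of the reference pools left out, the number ran from 145 to 302, the latter with pool 1 as the only reference (without replicate 3). Starvation-list genes numbered 9 at a threshold of 0.5, and also 9 when loci that overlap another locus were left out, an alternative added after the data were seen. The median log2 was -1.52 with no filter, -1.33 at a threshold of 0.5 and -0.89 at 0.7. Loci high in pool 2 by the mirrored rule, 43 as reported, became 458 with no filter, 169 at 1 CPM, 18 at 20 CPM, 9 at a threshold of 0.5, 163 at 0.7 and 96 with the mean of pools 1 and 3 as the reference. With 1 reference pool left out they numbered 146 to 247. The difference in share for GGCCCA between members and background was -8.54 percentage points against all promoters and -15.4 against promoters of loci with at least 10 CPM. With only the 250 bases before the start, the difference against all promoters went from 19.6 to 11.8 points for TATCCA. For GATAAG it went from 22.1 to 17.4, for ACGTGT from 20.1 to 20 and for CACGTG from 9.6 to 9.7. Leaving out pool 2 gives no value, since the rule rests on it. No paired analysis was possible because there is 1 group.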
